A study of Arabidopsis thaliana with 18 samples.

Results

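The nuclear genes for plastid ribosomal proteins are the 33 genes whose locus identifiers were listed as encoding a protein of the small (PRPS) or the large (PRPL) subunit of the plastid ribosome. They were listed by identifier and not selected on a measured value, out of 25537 genes in the deposited table. Earlier results of these data were, however, known when the list was chosen. Of these 33, 9 encode small subunit proteins and 24 encode large subunit proteins, and all 33 passed the filter on low counts. RNA was measured by oligo(dT)-selected RNA sequencing of whole roots of untreated Arabidopsis thaliana seedlings, 4 days old, raised on medium with 1% sucrose under days of 16 h light and 8 h dark. The 18 libraries come from 6 genotypes with 3 libraries each: Col wild type (WT), the single mutant rab8d-2, and 4 double mutants. These double mutants all carry rab8d-2, combined with the allele atm-2, with sog1-1, with nac044-1, or with nac085-1, and no single atm-2, sog1-1, nac044-1 or nac085-1 mutant was analysed here. For the rab8d-2 libraries, a genotype entry of Col (WT) contradicts the titles, which were followed.

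Plastids translate their own messages on a ribosome of bacterial type. Its ribosomal RNAs and part of its proteins are encoded in the plastid genome, and the remaining proteins, including those described here, are made in the cytosol from nuclear messages and imported. In roots the plastids are mostly non-green, and their ribosomes serve, among other tasks, to make a subunit of the enzyme that begins fatty acid synthesis. RAB8D (AT4G20360) encodes the plastid elongation factor EF-Tu, which brings aminoacyl-tRNA to this ribosome. ATM is a kinase of the DNA damage response, SOG1 is the transcription factor it activates, and NAC044 and NAC085 are related transcription factors downstream of SOG1. Set against WT, the rab8d-2 libraries ask what loss of the elongation factor does to the messages for the ribosome it serves. The other comparisons ask how each double mutant differs from rab8d-2.

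Library totals lay between 20103634 and 20471203 estimated counts, and a member had between 72 and 822 counts in a library. RAB8D RNA, in normalised counts (CPM, counts scaled to library size after TMM scaling), was 90.2 ± 2.62 (SD, n = 3) in WT, 11.4 ± 0.419 in rab8d-2 and 13.2 to 17.7 in the means of the double mutants. ATM RNA had a mean of 5.51 CPM in atm-2 rab8d-2 and 53.7 CPM in rab8d-2, and SOG1 RNA 29.4 CPM in sog1-1 rab8d-2 and 25.0 CPM in rab8d-2. NAC085 RNA was low, with 0.915 ± 0.443 CPM (SD, n = 3) in nac085-1 rab8d-2, 1.73 ± 0.402 in rab8d-2 and 0.635 ± 0.159 in WT. Its mean in nac085-1 rab8d-2 was thus not below that of WT. NAC044 RNA was 160 ± 3.48 CPM (SD, n = 3) in the libraries labelled nac044-1 rab8d-2 and 19.4 ± 0.588 in rab8d-2, so these libraries are named by their label throughout. Of the root markers, WOX5, PLT1, SHR, SCR and CASP1 were detected in every library. Of 6 shoot markers, STM was at 0 in all WT and sog1-1 rab8d-2 libraries, and the summed level of the 6 had means of 22.2 TPM in WT and 37.9 TPM in rab8d-2. Much of that sum came from FDH, with means of 15.7 TPM in WT and 26.8 TPM in rab8d-2. By the test described below, 3 of 5 shoot markers tested were higher in rab8d-2 than in WT and 1 was lower. Libraries of a genotype are called biological replicates in the labels, but whether the plants were raised apart is not said, so p-values measure the spread between these libraries. That spread was small. The variance between pairs of libraries of a genotype was 1.36 to 2.29 times that of counting alone. The biological coefficient of variation, the spread beyond counting, was 2.38%. Small changes were therefore called, and whether they hold between plants raised apart was not tested.

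Together, the 33 members were most abundant in WT and least abundant in nac085-1 rab8d-2. Summed over the members in TPM, a unit scaled by transcript length, the WT libraries had 804, 820 and 796 TPM and the rab8d-2 libraries 729, 740 and 751 TPM. The libraries labelled nac044-1 rab8d-2 had 716, 723 and 724 TPM. The 3 double mutants with lower sums were sog1-1 rab8d-2 with 658, 681 and 666 TPM, atm-2 rab8d-2 with 627, 636 and 648 TPM, and nac085-1 rab8d-2 with 604, 588 and 588 TPM. The order of the means was thus WT, rab8d-2, the nac044-1 label, sog1-1, atm-2 and nac085-1. No library of one genotype overlapped with a library of the next genotype in this order. These sums carry no TMM scaling, so the smaller steps can depend on the unit. With TMM scaling, the median log2 fold change of the members against WT was -0.24 in each of rab8d-2, sog1-1 rab8d-2 and the nac044-1 label. The mean sum was 91.7% of WT in rab8d-2, 89.4% under the nac044-1 label, 82.9% in sog1-1 rab8d-2, 79.0% in atm-2 rab8d-2 and 73.6% in nac085-1 rab8d-2. In these bulk samples, fewer plastid-rich cells and less of this RNA per cell cannot be told apart.

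**Figure D1:**
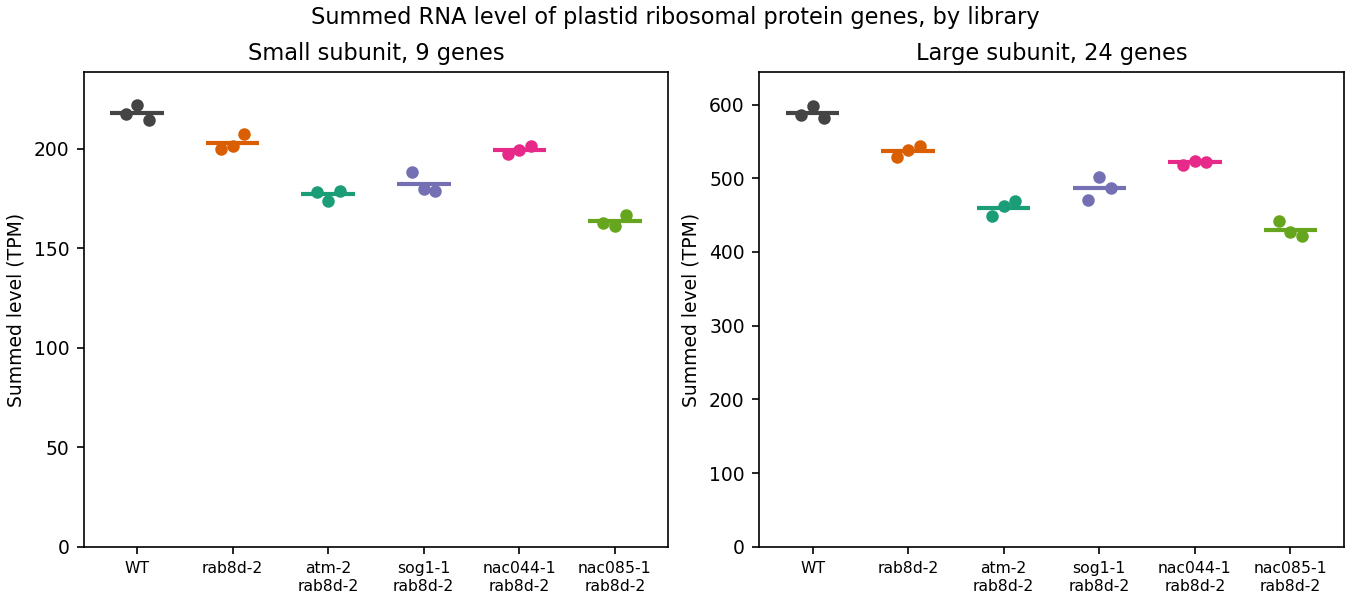
Summed level in TPM of the 9 small subunit genes (left) and the 24 large subunit genes (right); each point is 1 library, each bar the mean of 3 libraries of a genotype. In both panels WT is highest and nac085-1 rab8d-2 lowest, and the axes start at 0.

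Small and large subunit messages kept nearly the same proportion. The ratio of the summed small to the summed large subunit TPM had means of 0.370 in WT, 0.378 in rab8d-2, 0.385 in atm-2 rab8d-2, 0.375 in sog1-1 rab8d-2, 0.382 under the nac044-1 label and 0.380 in nac085-1 rab8d-2. Single libraries reached from 0.358 to 0.400, both extremes in sog1-1 rab8d-2. Individual members in WT reached from 8.71 TPM for PRPL11 to 52.8 TPM for PRPL27, with a median of 22.7 TPM. PRPL27 had the highest mean TPM of the 33 in every genotype. By mean TPM, WT was the highest of the 6 genotypes for 24 members and the lowest for none, while nac085-1 rab8d-2 was the lowest for 17, atm-2 rab8d-2 for 9 and sog1-1 rab8d-2 for 7.

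In rab8d-2 against WT, 22 of the 33 members fell, 1 rose and 10 did not pass the test (edgeR's quasi-likelihood test across all genes, Benjamini-Hochberg adjusted p under 0.05). Among all 19981 genes tested, 32.9% were lower and 31.7% higher by the same rule, so by this rule a larger share of the members than of all genes fell. With the minimum size described below, 6 of the 33 members remained, beside 20.7% of all genes. By that stricter rule the members' share was not the larger one. The word fell is used below for members with an adjusted p under 0.05. The median log2 fold change of the members was -0.24, beside 0.00 for all genes tested. The changes were small: log2 fold changes of the members reached from -0.49 to 0.12. Among the small subunit genes 7 of 9 fell, and among the large subunit genes 15 of 24 fell, with medians of -0.24 and -0.25.

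Among the small subunit members, PRPS6 (AT1G64510), whose E. coli counterpart lies on the platform of the subunit, had the largest decrease. Its libraries had 9.95, 9.51 and 10.4 CPM in WT and 6.84, 7.54 and 8.29 CPM in rab8d-2. All 3 rab8d-2 libraries lay below all 3 WT libraries (log2 fold change -0.40 ± 0.09 (SE), adjusted p = 0.00027). PRPS5, which in E. coli is known for its part in decoding accuracy, fell by 0.26 on the log2 scale. The head proteins PRPS9, PRPS10 and PRPS13 fell by 0.27, 0.24 and 0.24, and PRPS17 and PRPS20, which in E. coli bind ribosomal RNA early in assembly, fell by 0.23 and 0.21. PRPS21 had a log2 fold change of 0.05 (adjusted p = 0.565) and its libraries overlapped between the genotypes.

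PRPS1 (AT5G30510), whose E. coli counterpart binds messenger RNA at initiation, was the only member called higher. Its libraries had 36.1, 34.8 and 36.9 CPM in WT and 38.6, 39.5 and 39.4 CPM in rab8d-2. The groups did not overlap, but the difference was small (log2 fold change 0.12 ± 0.05, adjusted p = 0.0272). The call was lost without WT replicate 2 (0.10, adjusted p = 0.102), rab8d-2 replicate 2 (0.12, adjusted p = 0.0593) or rab8d-2 replicate 3 (0.12, adjusted p = 0.0537), and in DESeq2 (adjusted p = 0.0819).

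Of the large subunit members, PRPL31 (AT1G75350) had the largest decrease. Its E. coli counterpart forms a bridge between the subunits. The WT libraries had 9.85, 11.3 and 11.2 CPM and the rab8d-2 libraries 7.61, 8.07 and 7.33 CPM. Every rab8d-2 library lay below every WT library, and the mean was 71.1% of WT (log2 fold change -0.49 ± 0.09, adjusted p = 1.22e-05).

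PRPL4 (AT1G07320), whose E. coli counterpart lines the exit tunnel, had 21.9, 20.9 and 19.6 CPM in WT and 17.2, 15.2 and 15.7 CPM in rab8d-2 (a log2 difference of -0.37 ± 0.07, adjusted p = 7.2e-06). PRPL1 (AT3G63490), the protein of the mobile stalk beside the exit site of tRNA, had 30.4, 28.9 and 30.4 CPM in WT and 22.5, 24.7 and 24.2 CPM in rab8d-2 (a log2 difference of -0.33 ± 0.06, adjusted p = 4.6e-06). For both genes the groups did not overlap. PRPL3, an early binder of ribosomal RNA in E. coli, fell by 0.29, and PRPL5 and PRPL18, which in E. coli hold the small ribosomal RNA of the large subunit, fell by 0.34 and 0.26.

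The other large subunit members that fell were PRPL17 by 0.24, PRPL29 by 0.20, PRPL6 by 0.25, PRPL19-1 by 0.28, PRPL34 by 0.26 and PRPL27 by 0.15 on the log2 scale. PRPL17 and PRPL29 surround the tunnel exit in E. coli, and PRPL27 lies near the site of peptide bond formation. The large subunit members that did not pass had log2 fold changes between -0.13 (PRPL19-2) and 0.12 (PRPL28). Among them, PRPL9 was at 0.01, PRPL13 at 0.01, PRPL15 at -0.07, PRPL21 at -0.10, PRPL24 at -0.11 and PRPL35 at -0.11, and the libraries of the genotypes overlapped for each of them.

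The stalk proteins are the part of the large subunit that recruits elongation factors, EF-Tu among them, in E. coli. PRPL12A (AT3G27830) had 12.2, 11.8 and 11.2 CPM in WT and 10.0, 9.86 and 9.63 CPM in rab8d-2 (a log2 difference of -0.26 ± 0.08, adjusted p = 0.00558). PRPL12C (AT3G27850) had 8.80, 8.51 and 7.63 CPM in WT and 6.59, 6.96 and 5.80 CPM in rab8d-2 (-0.37 ± 0.10, adjusted p = 0.0021). Neither gene's groups overlapped. They are close copies of each other, and they were the only 2 members with decimal estimated counts, in all 18 libraries, so how their reads were divided is uncertain. PRPL10, the stalk base protein that carries PRPL12, fell by 0.28, while PRPL11 at the foot of the stalk had 5.90, 5.74 and 5.22 CPM in WT and 5.82, 5.70 and 6.13 CPM in rab8d-2 and did not pass (0.07 ± 0.12, adjusted p = 0.651).

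Of the 23 calls in rab8d-2 against WT, 10 were lost when 1 particular library was left out. The direction was kept in each. Beside PRPS1, PRPL19-1 was lost without WT replicate 1 (-0.20, adjusted p = 0.0932) and PRPL18 without WT replicate 3 (-0.15, adjusted p = 0.109). Without WT replicate 2, PRPL34 (-0.23, 0.104), PRPL6 (-0.21, 0.13), PRPS13 (-0.21, 0.0596), PRPS17 (-0.19, 0.086), PRPL29 (-0.13, 0.148) and PRPL27 (-0.14, 0.0504) were lost, each pair giving the log2 fold change and the adjusted p. In the same notation, leaving out rab8d-2 replicate 1 lost PRPL34 (-0.20, 0.147), PRPL6 (-0.27, 0.054), PRPS13 (-0.20, 0.0776), PRPS17 (-0.21, 0.0519), PRPL29 (-0.16, 0.0886) and PRPL27 (-0.12, 0.0914). PRPL10 was lost without WT replicate 1 (-0.19, 0.202) or 3 (-0.28, 0.0588) and without rab8d-2 replicate 2 (-0.25, 0.0879) or 3 (-0.27, 0.0658). PRPL6 was also lost without WT replicate 1 (-0.23, 0.0978) or rab8d-2 replicate 2 (-0.10, 0.438), and PRPL34 without WT replicate 3 (-0.25, 0.0706) or rab8d-2 replicate 3 (-0.26, 0.0713). The tool and the scaling also decided some of these calls. DESeq2 left 15 members lower, losing PRPL19-1 (adjusted p = 0.05), PRPS13 (0.0616), PRPS17 (0.0629), PRPL29 (0.0579), PRPL10 (0.0971), PRPL6 (0.113) and PRPL34 (0.125). Upper quartile scaling in edgeR left 16 lower, losing PRPS17 (adjusted p = 0.0562), PRPL10 (0.0683), PRPL29 (0.0709), PRPL27 (0.0911), PRPL34 (0.0911) and PRPL6 (0.0929). Fitting only the WT and rab8d-2 libraries lost PRPL6 (adjusted p = 0.0502).

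**Figure D2:**
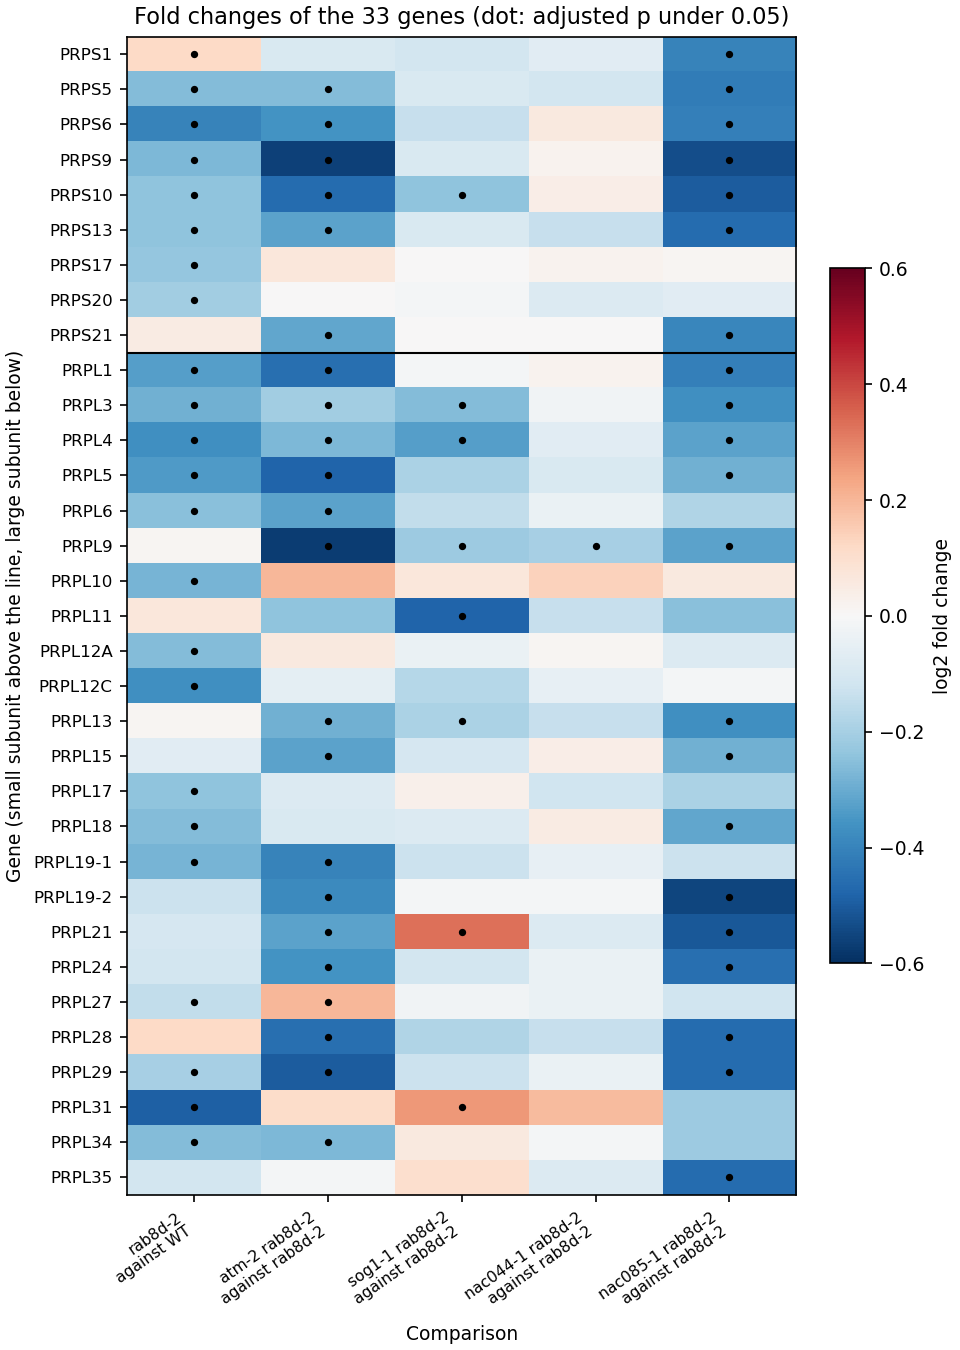
Log2 fold change (colour) of each of the 33 genes for rab8d-2 relative to WT (first column) and for the double mutants relative to rab8d-2; a dot marks an adjusted p under 0.05. The first, second and last columns hold 22, 21 and 21 genes called lower, and the nac044-1 column holds 1. The 4 right-hand columns share their rab8d-2 libraries.

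RefSeq names 9 of the members as embryo-defective genes, that is, genes whose loss stops the embryo. Of these, 8 fell in rab8d-2 against WT, with a median log2 fold change of -0.26, beside 14 of the 24 others, with a median of -0.20. Among the 9 so named, PRPL13 did not pass. Embryo-defective stands here for the gene name alone, so the 24 others can include genes whose loss also stops the embryo. Against rab8d-2 the medians of the embryo-defective genes and of the others were -0.27 and -0.32 in atm-2 rab8d-2, -0.09 and -0.10 in sog1-1 rab8d-2, -0.04 and -0.04 under the nac044-1 label, and -0.32 and -0.35 in nac085-1 rab8d-2. In atm-2 rab8d-2 and in nac085-1 rab8d-2, 6 of the 9 and 15 of the 24 were called lower.

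The messages for the other ribosomes of the cell went the opposite way in rab8d-2. All 34 cytosolic ribosomal protein genes listed rose, with a median log2 fold change of 0.36, and all 6 mitochondrial ribosomal protein genes listed rose, with a median of 0.40. Under each of 3 other scalings or tools all 34 cytosolic genes again rose. Of 7 genes listed under the name plastid-specific ribosomal protein, 4 fell (median -0.29), among them PSRP2 by 0.44, PSRP3/1 by 1.92 and PSRP5 by 0.33. Of 13 genes for plastid translation factors, 10 fell (median -0.33): besides RAB8D itself, SCO1, the plastid elongation factor G, fell by 0.89 and FUG1, the plastid initiation factor, by 0.91. Of 16 genes for plastid ribosome assembly, 3 fell and 5 rose (median 0.04), with RBF1 down by 0.48, RH3 down by 0.22 and RH39 up by 0.30.

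Of 5 regulators of plastid gene expression tested, 4 fell and 1 rose in rab8d-2, with a median log2 fold change of -0.54. GLK2, a transcription factor for photosynthesis genes, fell by 2.31, SIG6, a plastid sigma factor, by 0.63, and GUN1, a protein of plastid-to-nucleus signalling, by 0.54 on the log2 scale. Of 26 photosynthesis genes tested, 24 fell and 1 rose, with a median log2 fold change of -1.76. The ribosomal proteins encoded in the plastid genome could not be compared. Of 24 such genes 19 were in the table and 0 of them had enough counts to be tested in these oligo(dT)-selected libraries. Their summed counts were 11 to 13 per library in WT and 40 to 47 in rab8d-2.

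**Figure D3:**
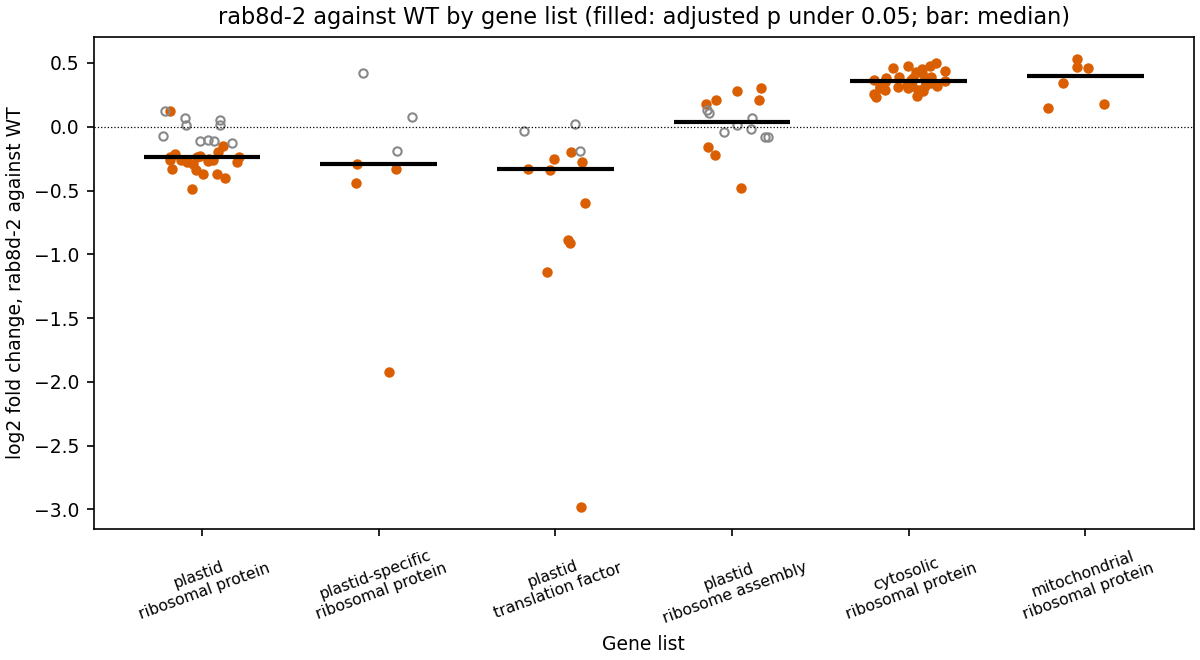
Log2 fold change of rab8d-2 against WT for each gene of 6 lists; filled points have an adjusted p under 0.05, and bars are list medians. Plastid ribosomal protein genes lie mostly below 0 with a median of -0.24, cytosolic ones all above 0 with a median of 0.36, and the lowest point is RAB8D at -2.98.

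The double mutants differed in how many members were called against rab8d-2. Against rab8d-2, 21 members fell and 1 rose in atm-2 rab8d-2, with 29.9% of all genes lower and 31.7% higher, and 21 fell and 0 rose in nac085-1 rab8d-2, with 31.7% lower and 31.8% higher. In sog1-1 rab8d-2, 6 fell and 2 rose, beside 26% and 28.7% of all genes, and under the nac044-1 label 1 fell and 0 rose, beside 18.6% and 24.3%. Shares of members were thus above the background of lower genes for atm-2 and nac085-1, and below it for sog1-1 and the nac044-1 label. Median log2 fold changes of the members were -0.29 (atm-2), -0.32 (nac085-1), -0.09 (sog1-1) and -0.04 (nac044-1 label), with all-gene medians between -0.01 and 0.02. Groups without overlap were again common among the 19981 genes tested. Against rab8d-2, 6250 genes were lower and 6693 higher without overlap in atm-2 rab8d-2, and 6593 and 6624 in nac085-1 rab8d-2. The counts were 5702 and 6149 in sog1-1 rab8d-2, and 4507 and 5655 under the nac044-1 label. These 4 comparisons share the rab8d-2 libraries, so their values are given side by side without a test of their likeness.

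In atm-2 rab8d-2 the largest decrease was that of PRPL9 (AT3G44890), a protein at the base of the tRNA exit stalk in E. coli. Its libraries had 11.02, 11.07 and 13.1 CPM in rab8d-2 and 8.13, 8.33 and 7.28 CPM in atm-2 rab8d-2 (a log2 difference of -0.57 ± 0.08, adjusted p = 1.14e-07). PRPS9 (AT1G74970), a head protein that reaches the tRNA in E. coli, had 8.57, 8.41 and 9.54 CPM in rab8d-2 and 5.98, 6.62 and 5.34 CPM in atm-2 rab8d-2 (-0.56 ± 0.10, adjusted p = 2.71e-06). For both, all 3 double mutant libraries lay below all 3 rab8d-2 libraries. The tunnel exit protein PRPL29 fell by 0.50, PRPL5 by 0.48 and the head protein PRPS10 by 0.46 on the log2 scale.

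The single increase in atm-2 rab8d-2 was that of PRPL27 (AT5G40950), the most abundant member. It had 23.6, 25.2 and 25.5 CPM in rab8d-2 and 27.4, 28.8 and 29.1 CPM in atm-2 rab8d-2 (a log2 difference of 0.20 ± 0.05, adjusted p = 0.00138). The atm-2 rab8d-2 libraries were near those of WT, which had 27.3, 27.98 and 27.3 CPM (log2 fold change against WT 0.05, adjusted p = 0.448). The members not called in atm-2 rab8d-2 against rab8d-2 were PRPS1, PRPS17, PRPS20, PRPL10, PRPL11, PRPL12A, PRPL12C, PRPL17, PRPL18, PRPL31 and PRPL35.

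In nac085-1 rab8d-2 the largest decrease was that of PRPL19-2 (AT5G47190), one of a pair of genes for the protein that bridges the subunits in E. coli. Its libraries had 12.2, 14.8 and 14.1 CPM in rab8d-2 and 9.03, 9.49 and 9.60 CPM in nac085-1 rab8d-2 (a log2 difference of -0.55 ± 0.08, adjusted p = 9.97e-08). The other gene of the pair, PRPL19-1 (AT4G17560), had 6.45, 7.35 and 6.61 CPM in rab8d-2 and 6.56, 5.75 and 6.29 CPM in nac085-1 rab8d-2 and did not pass (-0.13, adjusted p = 0.245). The libraries of PRPL19-2 did not overlap, and those of PRPL19-1 did; whether the pair differed from each other was not tested. In atm-2 rab8d-2 both genes fell, PRPL19-1 by 0.40 and PRPL19-2 by 0.38.

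Next in nac085-1 rab8d-2 came PRPS9, with 6.31, 5.26 and 6.73 CPM against the rab8d-2 values above (log2 fold change -0.53 ± 0.10, adjusted p = 6.43e-06). PRPL21 (AT1G35680) had 14.3, 13.9 and 14.4 CPM in rab8d-2 and 9.47, 10.2 and 10.3 CPM in nac085-1 rab8d-2 (-0.51 ± 0.08, adjusted p = 2.1e-07). Neither gene's groups overlapped. PRPS10 fell by 0.50, PRPS13 by 0.46 and PRPL29 by 0.46. PRPS1, the one member called higher in rab8d-2 than in WT, had 27.2, 29.8 and 31.9 CPM in nac085-1 rab8d-2, below every library of WT and rab8d-2 (log2 fold change against rab8d-2 -0.40, adjusted p = 2.82e-09). The members not called here were PRPS17, PRPS20, PRPL6, PRPL10, PRPL11, PRPL12A, PRPL12C, PRPL17, PRPL19-1, PRPL27, PRPL31 and PRPL34. For the stalk genes no further difference was called: against rab8d-2, PRPL12A stood at 0.06 (adjusted p = 0.53) in atm-2 rab8d-2 and -0.08 (adjusted p = 0.441) in nac085-1 rab8d-2, and PRPL12C at -0.06 (adjusted p = 0.642) and -0.01 (adjusted p = 0.929).

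In sog1-1 rab8d-2 the members split. PRPL11 (AT1G32990) fell most, from 5.82, 5.70 and 6.13 CPM in rab8d-2 to 3.65, 4.48 and 4.56 CPM (log2 fold change -0.48 ± 0.13, adjusted p = 0.00226), with no overlap. PRPL4 fell by 0.33, PRPL3 by 0.26, PRPS10 by 0.24, PRPL9 by 0.22 and PRPL13 by 0.19. The call of PRPL9 was lost without rab8d-2 replicate 3 (-0.13, adjusted p = 0.229) or sog1-1 rab8d-2 replicate 1 (-0.16, adjusted p = 0.136), and in DESeq2 (adjusted p = 0.0932).

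PRPL21 and PRPL31 rose in sog1-1 rab8d-2. PRPL21 had 16.1, 19.5 and 17.9 CPM, above the rab8d-2 libraries given above (log2 fold change 0.33 ± 0.07, adjusted p = 0.000105). It was also called higher than in WT, which had 14.0, 16.5 and 15.3 CPM, by 0.23 ± 0.07 (adjusted p = 0.00486), although these groups overlapped and the call was lost without WT replicate 1 (0.17, adjusted p = 0.0537) or sog1-1 rab8d-2 replicate 2 (0.16, adjusted p = 0.0733). PRPL31 had 8.11, 10.6 and 8.77 CPM (0.26 ± 0.10 against rab8d-2, adjusted p = 0.0242). That call was lost without rab8d-2 replicate 1 (0.25, adjusted p = 0.0555) or 3 (0.22, adjusted p = 0.0856) and without sog1-1 rab8d-2 replicate 2 (0.14, adjusted p = 0.284), the highest of its 3 libraries, and in DESeq2 (adjusted p = 0.08).

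In the libraries labelled nac044-1 rab8d-2, PRPL9 alone passed against rab8d-2, with 9.69, 10.3 and 10.8 CPM (log2 fold change -0.20 ± 0.08, adjusted p = 0.0459). The groups did not overlap, but the call was lost without rab8d-2 replicate 3 (-0.11, adjusted p = 0.344), nac044-1 rab8d-2 replicate 1 (-0.16, adjusted p = 0.17) or replicate 2 (-0.20, adjusted p = 0.0823), and in DESeq2 (adjusted p = 0.153). The log2 fold changes of the other 32 members were small, the highest being 0.19 for PRPL31 (adjusted p = 0.108).

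**Figure D4:**
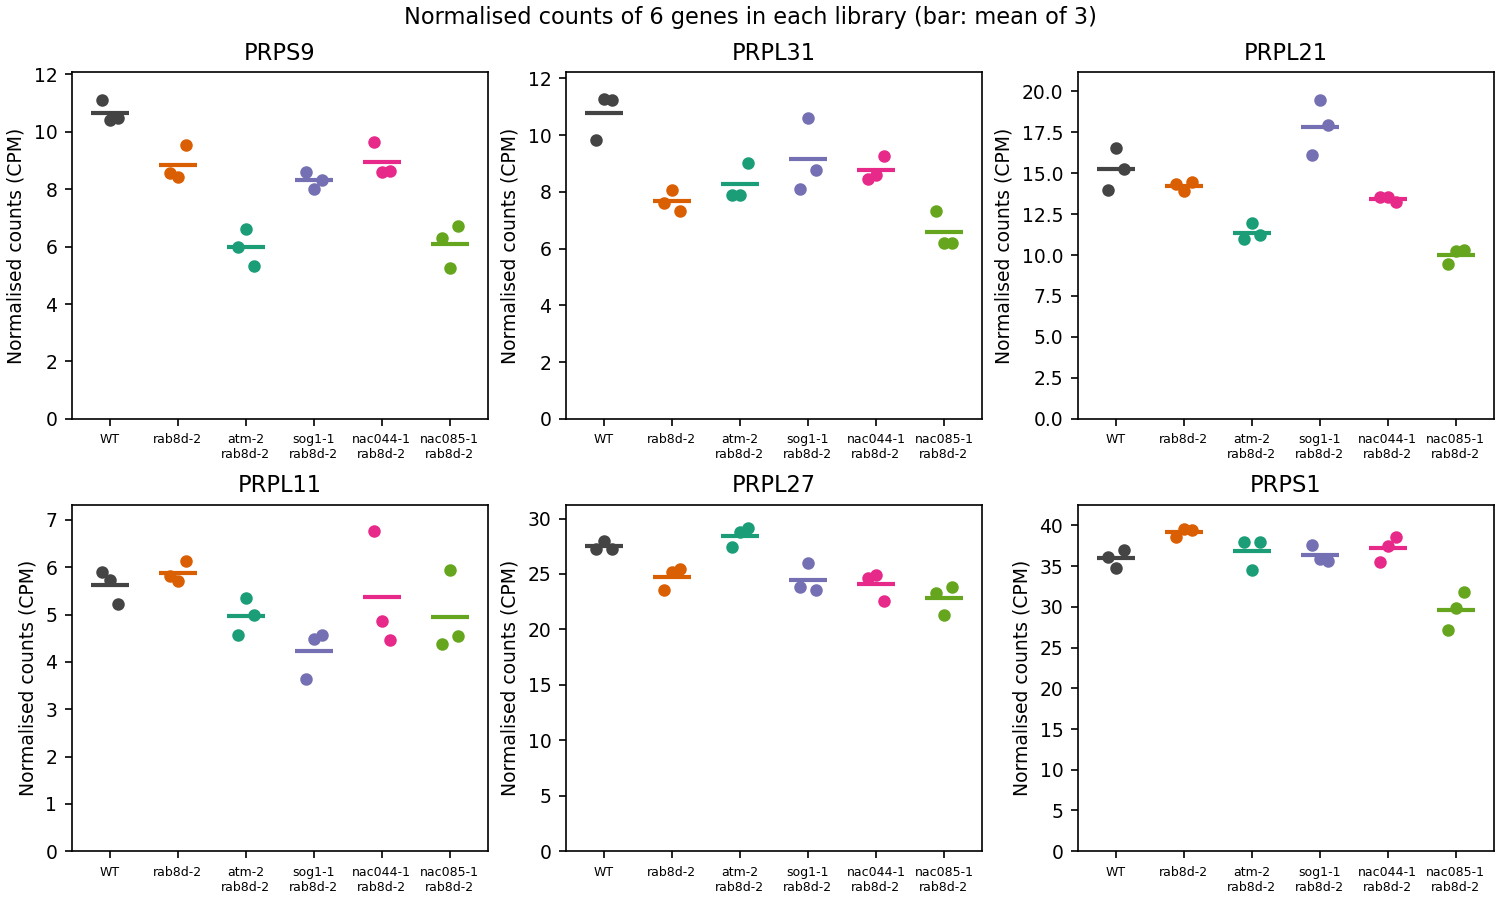
Normalised counts (CPM) of 6 genes; each point is 1 library and each bar the mean of 3. PRPS9 is lowest in atm-2 rab8d-2 and nac085-1 rab8d-2, PRPL31 is highest in WT, PRPL21 is highest in sog1-1 rab8d-2 and lowest in nac085-1 rab8d-2, PRPL11 is lowest in sog1-1 rab8d-2, PRPL27 is as high in atm-2 rab8d-2 as in WT, and PRPS1 is lowest in nac085-1 rab8d-2.

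Against WT, the counts of members lower and higher were 27 and 0 in atm-2 rab8d-2 (33.5% and 35.1% of all genes), 24 and 1 in sog1-1 rab8d-2 (29.2% and 28.8%), 24 and 0 under the nac044-1 label (28.8% and 29.3%), and 31 and 0 in nac085-1 rab8d-2 (32.4% and 32.5%). Median log2 fold changes of the members were -0.43, -0.24, -0.24 and -0.48 in this order. All 4 share the WT libraries. In atm-2 rab8d-2 the lowest were PRPS9 at 56.1% of WT, PRPL5 at 56.6% and PRPL1 at 58.2%. In nac085-1 rab8d-2 they were PRPS6 at 57.0%, PRPS9 at 57.2% and PRPS10 at 59.9%, and PRPL10 (-0.22, adjusted p = 0.0763) and PRPL11 (-0.18, adjusted p = 0.223) were the 2 members that did not pass. In sog1-1 rab8d-2 they were PRPL4 at 61.4%, PRPL3 at 68.5% and PRPS6 at 68.8%, and under the nac044-1 label PRPL4 at 73.5%, PRPL5 at 74.0% and PRPL12C at 75.1%.

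Direct tests, gene by gene, were made for sog1-1 rab8d-2 against atm-2 rab8d-2 and for nac085-1 rab8d-2 against the nac044-1 label. The other pairs of double mutants were not compared directly. In sog1-1 rab8d-2 against atm-2 rab8d-2, 15 members were higher and 1 was lower, beside 27.8% and 30% of all genes, with a median log2 fold change of 0.17. The increases were led by PRPL21 (0.65 ± 0.07, adjusted p = 1.31e-10), PRPS9 (0.47 ± 0.10, adjusted p = 7.68e-05) and PRPL1 (0.44 ± 0.07, adjusted p = 2.19e-07), and PRPL27 was the one lower (-0.22 ± 0.06, adjusted p = 0.000788). In nac085-1 rab8d-2 against the nac044-1 label, 20 members were lower and 0 higher, beside 29.2% and 29.3% of all genes, with a median of -0.32. PRPS9 (-0.55 ± 0.10, adjusted p = 4.2e-06), PRPL19-2 (-0.54 ± 0.08, adjusted p = 1.69e-07) and PRPS10 (-0.53 ± 0.08, adjusted p = 3.33e-08) were the lowest.

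A stricter count also asked for a minimum size. Counting only members that passed and were at or below 80% of the level in the other genotype, 6 remained in rab8d-2 against WT, with 20.7% of all genes past the same rule. In that comparison the members' share was thus not larger than that of all genes, unlike the share by the adjusted p alone. Against rab8d-2 there were 12 in atm-2 rab8d-2 (17.9%), 2 in sog1-1 rab8d-2 (10.9%), 0 under the nac044-1 label (7.84%) and 16 in nac085-1 rab8d-2 (17.2%). Against WT there were 22 in atm-2 rab8d-2 (22.8%), 15 in sog1-1 rab8d-2 (16.7%), 8 under the nac044-1 label (17.5%) and 26 in nac085-1 rab8d-2 (20.1%). Between double mutants there were 0 in sog1-1 against atm-2 (14.7%) and 16 in nac085-1 against the nac044-1 label (16%). By the same fold in the other direction, 1 member was higher in sog1-1 rab8d-2 against rab8d-2 (15.2%) and 7 in sog1-1 against atm-2 (17.2%).

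The lists around the members moved differently in the double mutants. Against rab8d-2, the cytosolic ribosomal protein genes had 12 lower and 4 higher in atm-2 rab8d-2 (median log2 fold change -0.03), 29 and 0 in sog1-1 rab8d-2 (-0.12), 33 and 1 under the nac044-1 label (-0.31) and 32 and 1 in nac085-1 rab8d-2 (-0.30). The nac044-1 label thus had a plastid median near 0 (-0.04) beside a lower cytosolic one, atm-2 rab8d-2 a lower plastid median (-0.29) beside a cytosolic one near 0, and nac085-1 rab8d-2 had both lower. The mitochondrial ribosomal protein genes had 1 lower and 1 higher, 5 and 0, 5 and 0, and 3 and 0 in the same order.

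Plastid ribosome assembly genes had 11 of 16 lower in each of atm-2 rab8d-2 (median -0.29), sog1-1 rab8d-2 (-0.26) and nac085-1 rab8d-2 (-0.33), and 1 lower under the nac044-1 label (-0.03). Of the 13 translation factor genes, 6 were lower and 1 higher in atm-2 rab8d-2, 2 lower and 2 higher in sog1-1 rab8d-2, 1 lower and 5 higher under the nac044-1 label, and 7 lower and 1 higher in nac085-1 rab8d-2. Of the 7 genes for plastid-specific ribosomal proteins, 1 was lower in each double mutant, and 1 was higher in each of atm-2 rab8d-2 (PSRP2, by 0.28, adjusted p = 0.000377) and sog1-1 rab8d-2.

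Other sets of genes moved along with these genotypes, and their part in the members' levels was not tested. The touch and jasmonate genes and the clock genes were listed after earlier results of these data were known. Their counts therefore describe these lists and do not test them. All 12 touch and jasmonate genes were lower in atm-2 rab8d-2 and in nac085-1 rab8d-2 than in rab8d-2, with median log2 fold changes of -2.82 and -2.41. Their summed level was 2784 to 2893 TPM in WT, 2671 to 2707 in rab8d-2, 536 to 542 in atm-2 rab8d-2, 2248 to 2290 in sog1-1 rab8d-2, 2602 to 2710 under the nac044-1 label and 645 to 661 in nac085-1 rab8d-2. All 7 clock genes with a peak around dawn were higher in atm-2 rab8d-2 (median 2.92) and sog1-1 rab8d-2 (2.77). Of these 7, 5 were higher and 0 lower under the nac044-1 label (0.43), and 3 higher and 1 lower in nac085-1 rab8d-2 (0.16). Of 7 clock genes with a peak around dusk, 5 were lower and 2 higher in atm-2 rab8d-2 (median -1.35), 7 lower in sog1-1 rab8d-2 (-1.25), 4 higher under the nac044-1 label (0.13), and 2 lower and 5 higher in nac085-1 rab8d-2 (0.16). Of 7 markers of dividing cells, 2 were lower in atm-2 rab8d-2, 5 in sog1-1 rab8d-2, 4 under the nac044-1 label and 4 in nac085-1 rab8d-2. The photosynthesis genes had 15 higher and 3 lower of 26 in atm-2 rab8d-2, 21 and 0 in sog1-1 rab8d-2, 3 and 3 under the nac044-1 label, and 2 and 8 in nac085-1 rab8d-2. Of 10 root markers, 6 were higher and 0 lower in atm-2 rab8d-2, 6 and 2 in sog1-1 rab8d-2, 1 and 2 under the nac044-1 label, and 7 and 0 in nac085-1 rab8d-2. Their summed level was 585 to 631 TPM in WT, 552 to 566 in rab8d-2, 745 to 826 in atm-2 rab8d-2, 702 to 732 in sog1-1 rab8d-2, 671 to 711 under the nac044-1 label and 948 to 1005 in nac085-1 rab8d-2. The root marker sum was thus above every rab8d-2 library in all 4 double mutants. Much of that sum came from 1 marker, PHT1;1, so it does not stand for the root markers in general. Its means were 273 TPM in rab8d-2, 388 in atm-2 rab8d-2, 353 in sog1-1 rab8d-2, 394 under the nac044-1 label and 592 in nac085-1 rab8d-2. Of 5 shoot markers tested, 3 were lower and 0 higher in atm-2 rab8d-2, 3 and 1 in sog1-1 rab8d-2, 4 and 0 under the nac044-1 label, and 4 and 1 in nac085-1 rab8d-2. The mean of the shoot marker sum, 37.9 TPM in rab8d-2, was 30.7 TPM in atm-2 rab8d-2, 22.9 in sog1-1 rab8d-2, 23.3 under the nac044-1 label and 29.3 in nac085-1 rab8d-2. Much of this sum came from FDH in every genotype.

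By gene order in the TAIR10.1 annotation, some members lie near a mutated locus and can be inherited together with it. PRPS13 has 17 protein-coding genes between it and NAC085, and PRPL10 has 101. PRPS13 had 8.66, 9.38 and 9.63 CPM in rab8d-2 and 6.99, 6.44 and 6.63 CPM in nac085-1 rab8d-2, and it fell in atm-2 rab8d-2 as well, by 0.32. PRPL9 lies 339 genes from ATM, PRPL34 lies 300 genes from SOG1 and PRPL19-1 lies 309 genes from RAB8D. Only members within a fixed distance of a mutated locus were listed here, and members farther away on the same chromosome can also be linked. PRPL11 and PRPL21 lie beyond that distance on chromosome 1, which also carries SOG1. The part of linkage in these values was not tested.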

How the data were processed

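The authors deposited estimated counts per gene from RSEM 1.3.1, per the submitters' processing notes; the aligner, genome build and strand are not given in the sources used here. The deposited TPM values are scaled to a fixed sum per library and were used only for levels. The deposited FPKM values were not used. In each library 1.56% to 1.75% of the estimated counts had decimals, and all were rounded. Of the gene identifiers, 25462 matched the TAIR10.1 gene table, with all 33 members among them.

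Tests used edgeR 4.0.16 under R 4.3.3 with the tool's own filter (19981 genes kept), TMM scaling (factors 0.97 to 1.02), 1 mean per genotype over all 18 libraries, the quasi-likelihood test and Benjamini-Hochberg adjustment over all genes within each of 11 comparisons. A call is an adjusted p under 0.05. The SE is the log2 fold change divided by the root of the test statistic. CPM are counts scaled to library size after TMM scaling. The test was checked on simulated data. Alternatives were RLE and upper quartile scaling, DESeq2 1.42.0, no filter, 2 genotypes only, a replicate block, leaving out each library, and a level at or below 80% of the other genotype's (or the same fold higher).

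Text names every called member in rab8d-2 against WT, up to 5 lowest and 5 highest in each double mutant against rab8d-2, 3 and 3 elsewhere, and up to 3 genes per further list; the 12 touch and jasmonate genes and the clock genes were listed after earlier results. The members, lists and tests were chosen with earlier results of these data known. No library was identical to another.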

Additional observations from a re-analysis of the deposited data

How the results depend on the processing

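The called members picked by rank as described above were followed under the alternatives run, and none of these calls changed direction. That check covered no other named members and no genes of the further lists. Requiring a level at or below 80% of the other genotype's, or the same fold higher, left 6 members lower and 0 higher in rab8d-2 against WT, 12 and 0 in atm-2 rab8d-2 against rab8d-2, 2 and 1 in sog1-1 rab8d-2 against rab8d-2, 0 lower under the nac044-1 label against rab8d-2 and 8 lower against WT, 15 and 0 in sog1-1 rab8d-2 against WT, and 0 lower and 7 higher in sog1-1 rab8d-2 against atm-2 rab8d-2. DESeq2 called 0 members higher in rab8d-2 against WT, 1 higher in sog1-1 rab8d-2 against rab8d-2, and 0 lower under the nac044-1 label against rab8d-2. That last count was also 0 without the filter, and 2 with upper quartile scaling or only the 2 genotypes; the cause of these moves was not tested.

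Leaving out 1 library at a time gave 16 to 21 members lower and 0 to 1 higher in rab8d-2 against WT, 19 to 20 lower in atm-2 rab8d-2, 5 to 7 lower and 1 to 2 higher in sog1-1 rab8d-2, 0 to 2 lower under the nac044-1 label and 22 to 23 lower in nac085-1 rab8d-2, each against rab8d-2. Against WT the ranges were 26 to 27, 18 to 25 (0 to 1 higher), 16 to 20 and 30 to 31 in the same order. Between double mutants they were 12 to 14 higher for sog1-1 against atm-2 and 19 to 21 lower for nac085-1 against the nac044-1 label. Under the nac044-1 label against rab8d-2, 56.6% of called genes were higher, and 44.5% with upper quartile scaling.

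Same-numbered libraries of different genotypes did not deviate together (correlations -0.128 to 0.0771), and 6 of 18 libraries were closest to their own number, so the numbers do not pair them. With the replicate number as a block, 22 members were lower in rab8d-2 against WT and 22 in nac085-1 rab8d-2 against rab8d-2, and the counts of the other comparisons were as in the fit without the block. Counts of 72 to 822 per member and library limit how small a change can be called.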
